A study of Mus musculus with 37 samples.

Results

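Long upstream open reading frames (ORFs) of 30 to 99 codons were described in a list of translated ORFs from dendritic cells, which present antigen to T cells and were grown here from mouse bone marrow. Ribosome footprints, the short RNA fragments that ribosomes shield from nuclease, had been sequenced in 37 libraries from cells of C57BL/6J mice aged 6 to 8 weeks. All cells were of this strain, and no other genotype is named in the labels. With cycloheximide, which stops elongating ribosomes (100 ug/mL for 1 min), there were 16 libraries of cells given lipopolysaccharide (LPS, a bacterial cell wall component, at 100 ng/mL), 8 of mock-treated cells and 2 of naive cells. With no inhibitor there were 8 libraries of LPS-treated cells and 1 of naive cells. The times ran from 0.5 to 12 h. Harringtonine (1 ug/mL for 5 min) and lactimidomycin (50 ug/mL for 30 min), which hold ribosomes at start codons, had 1 library each, from cells pooled over several LPS times. The authors deposited 1 list for all libraries, so it held no value per library: no comparison of LPS with mock or of inhibitors was made, and depth per library is unknown. The cycloheximide naive group and each cycloheximide LPS time had 2 replicate libraries by their titles, and every other group had 1. The labels also name coverage tracks shared by groups of libraries, which were not used here.

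The list held 22367 ORFs in 10418 families, a family being the ORFs that carry the same gene name on the same chromosome and strand. The main ORF of each family was taken as its longest ORF. A long upstream ORF had 30 to 99 codons, ended before the main start, had no codon of the main ORF in frame and lay on a transcript that contained the main start base. This gave 614 long upstream ORFs in 481 families. The listed transcript held all bases of the main ORF for 418 of the 614 (68.1%). For the rest, among them those of Ppp1r15b, Cflar, Ucp2 and Mief1, it held the main start but not the whole main ORF. Distances to the main start below are counted along the transcript listed for the upstream ORF. Of these families, 455 carried the name of a protein-coding gene and 15, with 21 of the ORFs, were assembled transcripts with no gene name. Another 40 upstream ORFs of this length lay on transcripts without the main start and were left out. Each ORF had a score from 500 to 991, which the authors assigned and whose scale is not given in the sources used here. It is used below only to describe and rank ORFs within this list. Of markers that define the labelled cells, 9 of 10 dendritic cell genes, among them Itgax, Zbtb46 and Ccr7, had a listed ORF. So did 5 of 5 macrophage, 6 of 6 neutrophil, 3 of 4 fibroblast, 1 of 4 B cell and 1 of 4 T cell markers. None of these genes had a long upstream ORF, against 463 of 10182 named genes of the list (4.55%). With so few markers, no difference is read from this.

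Ribosomes scan an mRNA from its 5′ end and can initiate at upstream ORFs before they reach the main coding sequence. Translation of an upstream ORF usually lowers translation of the main ORF, and in the mRNAs of some stress response genes it does so in a regulated way. Most upstream ORFs are short, but a few of the longer ones encode stable small proteins, such as the product of the upstream ORF of Mief1, which acts in mitochondrial translation.

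The letters around the start were read where they could be matched to RefSeq (GRCm38.p6), in a table that covers up to 50 bases after each gene start. No genome of the build of the list, mm9, was used here. A start was read at the same distance from the RefSeq gene start as it lay from the start of its listed transcript, a rule chosen after the data were seen. At that position 15 of 57 readable long upstream ORFs had ATG (26.3%), against 33 of 78 upstream ORFs of 10 to 29 codons (42.3%), 44 of 77 under 10 codons (57.1%) and 564 of 993 main ORFs (56.8%). Shifting the position by 1 base to either side or by 3 bases downstream left ATG at 0 to 3.57% of long upstream ORFs, against 0.630 to 0.826% of main ORFs. The near-cognate codons CTG, GTG and TTG stood at 4, 3 and 4 of the 57 long upstream ORFs. A mismatch of the transcript starts between the sources and a start at another codon cannot be told apart in the rest. The starts below are shown because they were the highest-scoring long upstream ORFs with ATG at the matching position, together with those of Slc7a11, Ppard and Topors, 5′ to 3′ with the ATG in capitals and up to 10 bases before it.
Ifrd1: agagagaaacATGtatcgtttccgctcgc
Usp21: accaacaaagATGgc
Pcif1: gggacacaagATGgcggcagcggcgctggg
Lonrf3: ggcagccggcATGgagctcgggaggcgagg
Snx13: ctcttccaagATGgcggcgcgtccgtcgcg
Slc7a11: ctggtgtgtaATGatagggc
Ppard: ctggggattaATGggaaaagttttggcagg
Topors: caatttaggaATGggttctggagttccaag

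These windows lay, in GRCm38.p6, at chr12:40223140-40223168 (minus strand) for Ifrd1, chr1:171287912-171287926 (minus) for Usp21, chr2:164879383-164879412 (plus) for Pcif1 and chrX:36328423-36328452 (plus) for Lonrf3. Those of Snx13 and Slc7a11 lay at chr12:35047202-35047231 (plus) and chr3:50443564-50443583 (minus). Those of Ppard and Topors lay at chr17:28232773-28232802 (plus) and chr4:40269798-40269827 (minus). All were in the 5′ part of the transcript, upstream of the listed main start. A purine 3 bases before the ATG and a G just after it are the positions of the Kozak context that favour initiation. Of the 15 starts with ATG, 10 had the purine, 11 had the G and 7 had both, as Usp21, Pcif1, Lonrf3 and Snx13 did. The purine and the G were not counted at the starts of main ORFs or of shorter upstream ORFs. Whether long upstream ORFs have a favourable context more often than these was thus not tested. The start of Ifrd1 had the purine and a T after the ATG, and that of Ppard had a T at the first of these positions and a G at the second. After the ATG, none of the 15 held an in-frame stop codon in the bases that could be read.

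Long upstream ORFs scored lower at the median than both shorter and longer upstream ORFs. Their median score was 718 (quartiles 600 and 841.8, n = 614), against 771 (630 and 890, n = 1073) for upstream ORFs of 10 to 29 codons and 801 (671.2 and 926.8, n = 926) for those under 10 codons. ORFs that ran over the main start had a median of 743 (n = 650) and main ORFs one of 926 (n = 10418). A score of 900 or more was held by 101 long upstream ORFs (16.4%, 95% Clopper-Pearson interval 13.6 to 19.6%), against 23.8% of those of 10 to 29 codons and 29.9% of those under 10 codons. The 61 upstream ORFs of 100 codons or more had a median score of 793, and 34.4% of them scored 900 or more. At the low end, 153 (24.9%) scored under 600, against 19.1% and 13.7% of these shorter classes. Such intervals cover counting error only, and since ORFs of a family share transcripts, starts and stops, the classes were set side by side with no test.

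**Figure D1:**
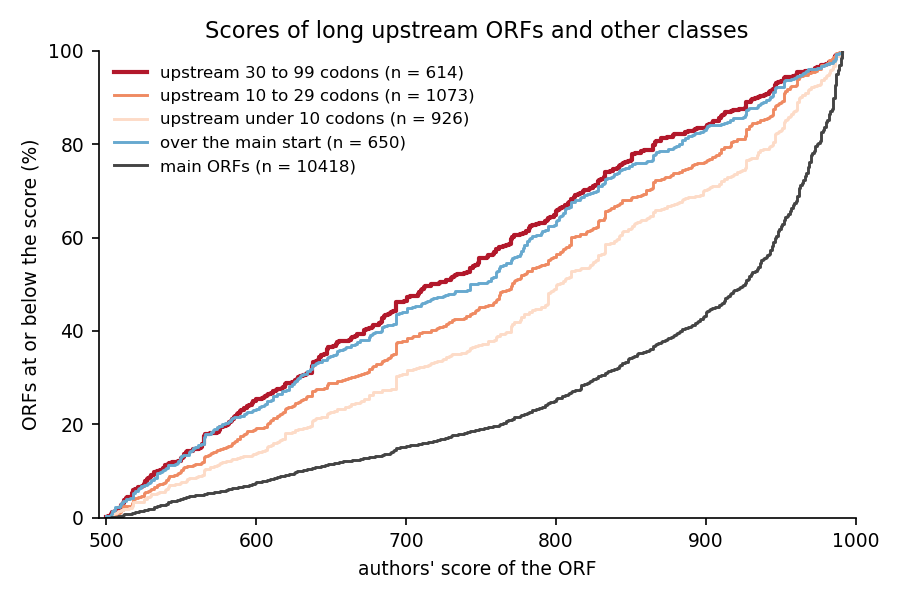
Cumulative share of ORFs (%) at or below each score for long upstream ORFs, the shorter upstream classes, ORFs over the main start and main ORFs. The curve of long upstream ORFs lies left of those of both shorter upstream classes, with medians of 718, 771 and 801, and main ORFs lie furthest right, with a median of 926.

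Score and length were only weakly related within the window. The 257 ORFs of 30 to 39 codons had a median score of 732 and the 157 of 40 to 49 codons one of 749. From 50 to 59 codons it was 724.5 (n = 94), from 60 to 69 codons 701 (n = 45) and from 70 to 79 codons 664.5 (n = 34). The longest bins were thinly filled, with medians of 682 at 80 to 89 codons (n = 19) and 687.5 at 90 to 99 codons (n = 8). Across the 614 ORFs, Spearman's rho of codons and score was -0.04, a description over ORFs that share transcripts. The median length was 43 codons (quartiles 35 and 53.8). At the lower edge of the window, the 28 ORFs of 30 codons had a median score of 637.5, led by Fam73b (974) and Lonrf3 (950), and the 32 of 31 codons one of 734.5, led by Pcgf5 (976). Just outside, the 30 upstream ORFs of 29 codons had a median of 729, led by Cab39l (977), and the 27 of 28 codons one of 779, led by Tyk2 (986). At the upper edge stood Asnsd1 (812) and Esco1 (558) with 99 codons, and no upstream ORF on a transcript with the main start had 100 or 101.

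Main ORFs scored higher than the long upstream ORF in most families. The long upstream ORF scored above its own main ORF in 187 of 614 cases (30.5%, 26.8 to 34.3%), against 33.1% of upstream ORFs of 10 to 29 codons, 37.4% of those under 10 codons and 39.3% of those of 100 codons or more, and the scores were equal in 4. The median of its score minus that of its main ORF was -113.5. Main ORFs of the families with a long upstream ORF had a median score of 861, against 884 in the 1130 families with only shorter upstream ORFs and 926 over all families. They were longer than main ORFs over all families, with a median of 513 codons against 435. Other upstream classes were alike in this. Counted once per upstream ORF, main ORFs had a median of 502 codons for long upstream ORFs. The medians were 533 codons for upstream ORFs of 10 to 29 codons, 493.5 for those under 10 codons and 493 for those of 100 codons or more. Across the 614, Spearman's rho of the score and the main score was -0.09.

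**Figure D2:**
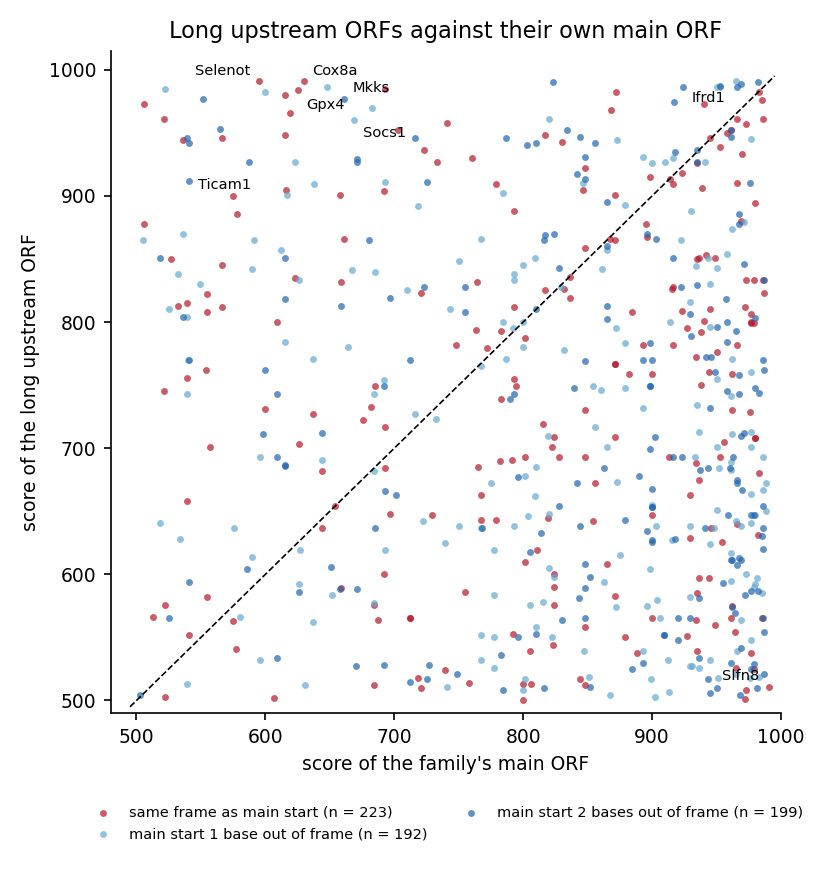
Score of each long upstream ORF against the score of its family's main ORF, coloured by the frame of the main start, with a dashed line at equal scores and 8 genes labelled. Of the 614 points, 187 lie above the line, and Selenot, Cox8a and Gpx4 stand at the upper left with main scores of 595, 630 and 625.

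The highest-scoring long upstream ORFs were those of Cox8a, Ifrd1 and Selenot, all at 991, the highest score in the list. Ifrd1, a transcriptional coregulator whose mRNA carries a described regulatory upstream ORF, had 52 codons (mm9 chr12:40949587-40949745, minus strand), which began 31 bases after the transcript start and ended 43 bases before a main ORF of 449 codons scoring 965. Ppp1r15b, a regulatory subunit of the phosphatase that dephosphorylates eIF2alpha, had 51 codons scoring 990 (mm9 chr1:135028094-135028249, plus) in the exon of the main start, 74 bases before a main ORF scoring 823. An upstream ORF of 8 codons in its leader scored 921. Thus in both stress response genes the long upstream ORF scored above the main ORF, by 26 in Ifrd1 and 167 in Ppp1r15b. Cflar, a caspase-8 homologue that restrains death receptor signalling, had 32 codons scoring 989 that ended 2 bases before a main ORF of 481 codons scoring 969. Gcnt1, a glycosyltransferase of O-glycan branching, had 83 codons scoring 986 that ended 1 base before the main start (950). Samd9l, an interferon-induced antiviral factor, had 38 codons at 990, beside a main ORF of 1579 codons at 982. Ucp2, an inner mitochondrial membrane carrier, had 36 codons at 987 (main ORF 953), and Rc3h1, which encodes the mRNA decay factor Roquin-1, had 58 codons at 986 (main ORF 966).

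The remaining genes of the 10 highest scores were Cox8a and Txnl4a, beside Selenot. Cox8a encodes a small subunit of cytochrome c oxidase. Its upstream ORF had 69 codons across 1 junction (mm9 chr19:7289879-7292002, minus) and ended 621 bases before a main ORF of 271 codons that scored 630. Whether the 69 codons are the coding sequence of Cox8a and the 271-codon ORF that of another gene on a joined transcript was not tested. In Txnl4a, a component of the spliceosome, the upstream ORF of 63 codons scored 986 and began at the same base as a listed ORF of 142 codons that scored 979 and ran over the start of the 220-codon main ORF (924). Whether the 142 codons, and not the 220, are the coding sequence of Txnl4a was not tested. In all, 18 of 614 long upstream ORFs (2.93%), in 15 families, shared in-frame codons with another listed ORF of 100 codons or more that was not the main ORF, and 8 of the 18 began at the same base. Esr1, the estrogen receptor, was one of these, with 50 codons at 693 from the start of a 489-codon ORF that scored 961, beside a main ORF of 597 codons at 596. Stk16 and Taf9 were others, with 64 codons at 810 and 41 codons at 926. The share of 2.93% was not counted in the other upstream classes, so it is not read as particular to long upstream ORFs.

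**Figure D3:**
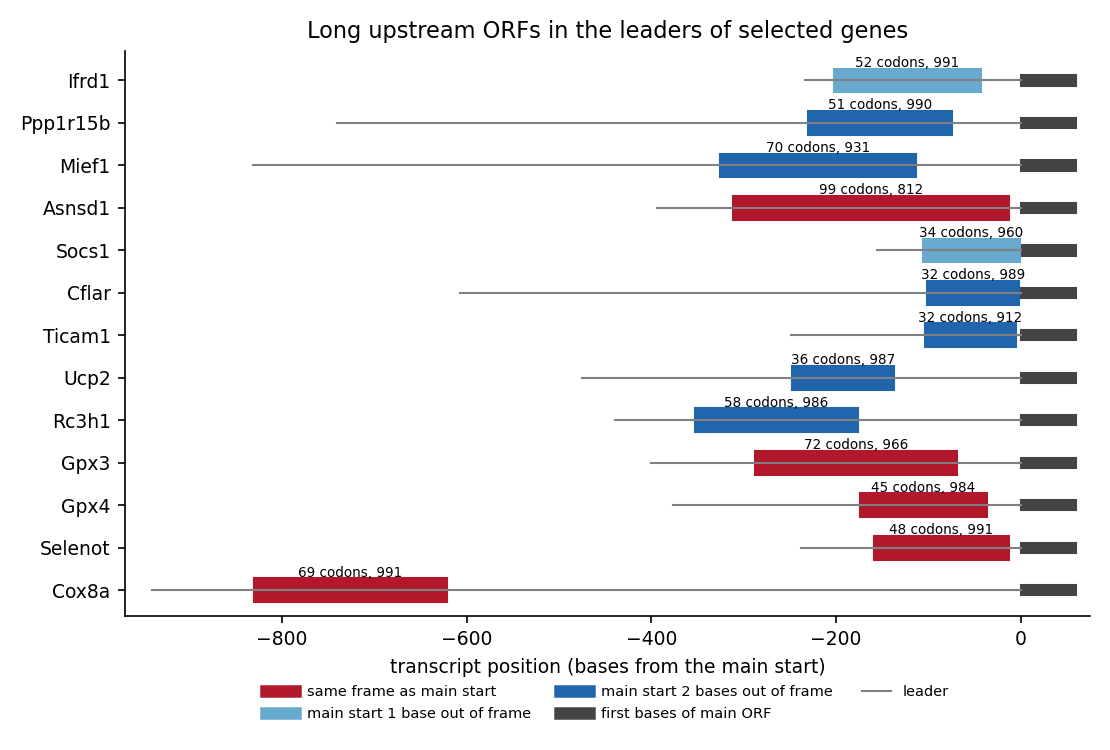
Leaders of 13 genes drawn to scale in transcript bases from the main start (position 0), with each long upstream ORF as a box marked with its codons and score and coloured by the frame of the main start. The box of Cflar ends 2 bases and that of Socs1 1 base before the main start, while that of Cox8a ends 621 bases before it. Some of the transcripts drawn, among them those of Ppp1r15b, Mief1, Cflar and Ucp2, do not hold the whole main ORF.

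Long upstream ORFs ended at a median of 125 transcript bases before the main start (quartiles 42 and 270), against 115 for upstream ORFs of 10 to 29 codons and 105.5 for those under 10 codons. The stop lay within 10 bases of the main start in 43 cases (7.00%), within 50 bases in 176 (28.7%) and within 100 bases in 274 (44.6%). It lay over 1000 bases before it in 25 (4.07%). The distance to the transcript start had a median of 230.5 bases and the leader, from transcript start to main start, one of 544.5. The start lay in the first exon of the transcript in 453 cases (73.8%), and in the exon of the main start in 227 (37.0%). In 80 cases (13.0%) the ORF took up more than 50 percent of the leader.

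At the short extreme the stop directly adjoined the main start, among others in Foxn3, a forkhead factor (60 codons, score 731), in Gas2l3, a cytoskeletal linker (51 and 52 codons, both 565), and in Rilpl2 (37 codons at 904 and 55 codons at 600). Such an ORF is in the main frame by construction, since 1 stop codon alone separates it from the main start. The longest distance was in Evi2a, where 47 codons at 952 ended 11075 bases before a main ORF of 444 codons (961), followed by Slfn8 (45 codons at 511, 7743 bases) and a second ORF of Evi2a (64 codons at 683, 6955 bases). In G530011O06Rik 31 codons at 527 ended 6409 bases before the main start. In Fes, a cytoplasmic tyrosine kinase, 31 codons at 843 ended 5309 bases before a main ORF of 820 codons (828), and 793 codons at 986 were listed between them. The families of Evi2a and Fes thus held another long ORF between the upstream ORF and the main start, in Evi2a one of 223 codons at 990. Whether these transcripts join neighbouring genes, so that the distance runs from one gene to the next, was not tested.

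**Figure D4:**
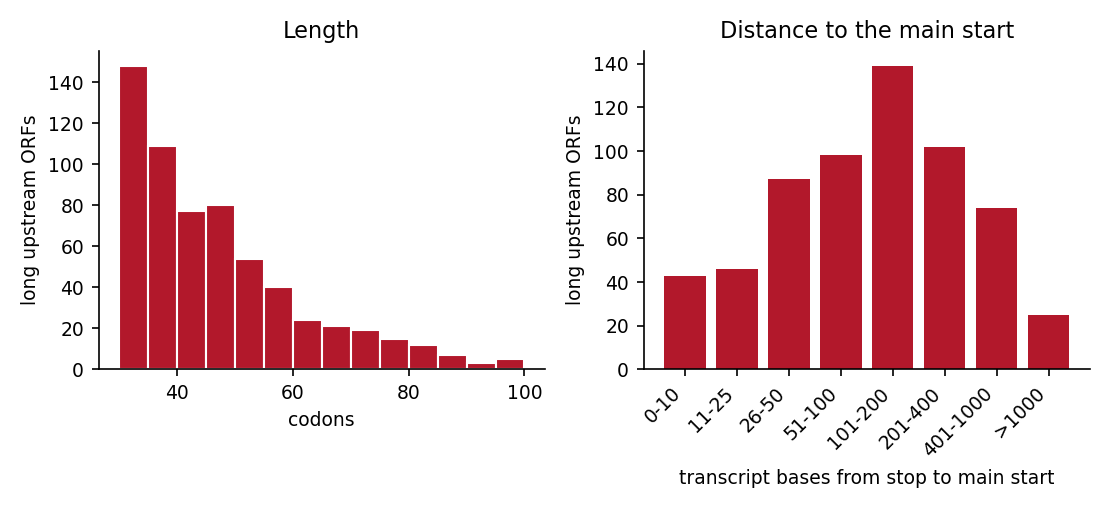
Number of long upstream ORFs by length in codons (left, bins of 5 codons) and by transcript bases from the stop to the main start (right, bins of unequal width as labelled). The fullest length bin is the shortest one, the median is 43 codons, and 25 ORFs lie over 1000 bases from the main start.

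An exon junction lay inside 234 long upstream ORFs (38.1%, 34.3 to 42.1%), against 22.0% of upstream ORFs of 10 to 29 codons and 4.64% of those under 10 codons. Per coding base the order was not one of length. There were 3.32 junctions per 1000 coding bases in long upstream ORFs, against 3.90 and 2.53 in these shorter classes and 1.14 per 1000 bases in the rest of their leaders. This last rate pools all leader bases, counted once per ORF, so leaders of up to 30161 bases weigh on it. Upstream ORFs of 100 codons or more had 5.29 (73.8% with a junction) and ORFs over the main start 5.08 (57.4%). Mapk6, an atypical MAP kinase, showed such a spliced ORF, with 46 codons at 930 across a junction to the exon of the main start, which lay 603 bases downstream. No long upstream ORF shared a coding base with a listed ORF of another family on the same strand (0 of 614, which allows a share of up to 0.599%), and 4 lay opposite one. These overlaps were not counted in the other classes or the whole list, so nothing particular to long upstream ORFs is read from them.

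The main start was in the frame of the long upstream ORF in 223 of 614 cases (36.3%, 32.5 to 40.3%), 1 base out of frame in 192 and 2 bases out in 199. In-frame ORFs had a median score of 759, against 693 and 699 in the other frames. Among ORFs that scored 900 or more, 46 of 101 were in frame (45.5%, 35.6 to 55.8%), against 177 of 513 with lower scores (34.5%, 30.4 to 38.8%). In upstream ORFs of 10 to 29 codons these shares were 36.9% and 32.9%, and in those under 10 codons 38.3% and 36.4%. In upstream ORFs of 100 codons or more they ran the other way, 23.8% (5 of 21) and 30.0% (12 of 40). The intervals of the long upstream ORFs overlap, and the difference was not tested. Where the transcript held all bases of the main ORF, 164 of 418 long upstream ORFs were in frame (39.2%, 34.5 to 44.1%). Elsewhere 59 of 196 were (30.1%, 23.8 to 37.0%), also with no test.

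Selenoprotein genes were among the in-frame ORFs with high scores. In these genes UGA, a stop codon elsewhere, encodes selenocysteine, which stands in the active site of glutathione peroxidases. The genes were picked out after their values were seen. Of 24 selenoprotein genes looked for, 19 had a listed ORF and 4 had a long upstream ORF, 6 ORFs in all, each in the frame of the main start. Gpx4, which reduces lipid hydroperoxides, had 45 codons at 984 that ended 36 bases before a main ORF of 112 codons at 625. Gpx3, the secreted plasma enzyme, had 72 codons at 966, 69 bases before 130 codons at 619. Selenot, an endoplasmic reticulum protein, had 48 codons at 991, 12 bases before 142 codons at 595. Thus in all 3 of these genes the upstream ORF scored above the main ORF, by 359 in Gpx4, 347 in Gpx3 and 396 in Selenot. The difference in Selenot depends on the start taken as main, since a listed ORF of 137 codons with the same end scored 777. Sephs2, which makes selenophosphate, had starts of 62, 76 and 85 codons (822, 582 and 808) on 1 stop, 36 bases before 377 codons at 555. Without selenoprotein genes, 43 of 98 ORFs scoring 900 or more were in frame (43.9%). In Gpx1 and Selenop the longest listed ORF was itself short, with 46 codons at 989 and 58 codons at 977, so these counted as main ORFs. Whether the stop of these ORFs is the selenocysteine UGA was not tested, since their sequence was not read.

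Other in-frame pairs were found in signalling genes. Syk, the kinase of C-type lectin and Fc receptor signalling, had 44 codons at 957 that ended 12 bases before a main ORF of 629 codons at 973, and 55 codons at 508 with the same stop. Clec5a, a myeloid lectin receptor, had 51 codons at 982, also 12 bases before its main start (983). In all, 102 in-frame long upstream ORFs had their stop within 100 bases of the main start.

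Families often held more than 1 upstream ORF. The 481 families had 1 long upstream ORF in 381 cases, 2 in 75, 3 in 17 and 4 in 8. An upstream ORF of 10 to 29 codons was also listed in 192 of the 481 (39.9%), against 633 of 9937 other families (6.37%), and one under 10 codons in 129 (26.8%), against 640 (6.44%). ORFs over the main start were in 41 (8.52%), against 481 (4.84%). Only long upstream ORFs were listed upstream in 198 of the 481 (41.2%). The other families include those with no upstream ORF at all. Neither the number of listed transcripts per family nor the leader length was matched between these groups. Leaders had a median of 544.5 bases, counted once per long upstream ORF, while main ORFs of all families began at a median of 186 bases. The 614 ORFs had 558 stop codons, of which 47 (8.42%) ended more than 1 long upstream ORF. In these, the longest start scored above the shortest in 17 and below it in 30. Of all 614, 147 shared their stop with a listed upstream ORF of under 30 codons, some of them on these same stops.

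The 8 families with 4 long upstream ORFs were Gpr85, Homer1, Nlrc5, Socs2, Spred1, Tirap, Trerf1 and the assembled transcript TCONS_00065813. In Homer1, a scaffold protein of synapses and signalling complexes, the ORFs of 34 and 31 codons scored 922 and 913, above the main ORF of 369 codons (848), and those of 34 and 56 codons scored 565 and 512. Spred1, an inhibitor of Ras signalling, had 61 codons at 936, 31 at 829, 42 at 734 and 36 at 539, all in the exon of the main start, and a main ORF at 935. In Nlrc5, the transactivator of MHC class I genes, all 4 scored below the main ORF of 1932 codons (767), from 532 to 765. In Gpr85, an orphan receptor, 3 of the 4 scored above the main ORF of 347 codons (539), at 658, 756 and 804. High and low scores thus stood side by side in 1 leader.

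Genes were then grouped by lists of function, which were chosen with earlier results of these data known and are described with no test. Over the whole list, 463 of 10182 named genes (4.55%) had a long upstream ORF. Of 9 genes with described peptide-coding upstream or bicistronic ORFs that had any listed ORF, 3 had a long upstream ORF (33.3%, 7.49 to 70.1%). Mief1, an adaptor of mitochondrial fission, had 70 codons at 931 (mm9 chr15:80066265-80066477, plus), 113 bases before a main ORF of 463 codons at 848. Asnsd1, named for an asparagine synthetase domain, had 99 codons at 812 (mm9 chr1:53405323-53409463, minus, across 3 junctions) and 62 codons at 845 on the same stop, 12 bases before a main ORF of 627 codons at 566. Both ORFs of Asnsd1 were in the main frame and scored above the main ORF, by 246 and 279. In Mkks, a chaperonin-like protein mutated in a ciliopathy, 59 codons at 977 and 43 codons at 866 overlapped in different frames, and the longest listed ORF, which served as main ORF, had 60 codons at 661. Slc35a4 and Mocs2 were outside the class by rule, Slc35a4 because its listed ORF of 103 codons (977) was the longest of its family and Mocs2 because its 88 codons (748) ran over the main start.

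Stress response genes with described regulatory upstream ORFs had 2 of 18 with a long upstream ORF, Ifrd1 and Ppp1r15b. Atf4 and Ddit3, transcription factors of the integrated stress response, had as longest listed ORF one of 59 codons at 952 and one of 34 codons at 893, which were thus their main ORFs and not upstream ORFs by the rule. Among polyamine genes, 1 of 10 had one, Azin1, which binds antizyme (32 codons at 851, main ORF 943).

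Signalling lists of innate immunity stood above 4.55% in part. Upstream or over-start ORFs of any length, long ones included, were listed for 10 of 23 Toll-like receptor pathway genes. The same held for 9 of 25 JAK, STAT, IRF and SOCS genes. No share over all named genes was computed for this count. Whether these lists stand higher in long upstream ORFs alone was not tested. In the Toll-like receptor pathway, 5 of 23 genes had a long upstream ORF (21.7%, 7.46 to 43.7%). Tirap, the adaptor that brings MyD88 to TLR4, had 33 codons at 980, 66 at 948, 66 at 818 and 33 at 686, against a main ORF of 206 codons at 615. The 66-codon ORF at 948 began at the start of an upstream ORF of 101 codons with the same score. Ticam1, the adaptor TRIF, had 32 codons at 912 that ended 5 bases before a main ORF of 715 codons at 541, and Ticam2, the adaptor TRAM, had 31 codons at 851 (main ORF 809). All 3 adaptors thus had a long upstream ORF scoring above the main ORF. The receptors Tlr13 and Tlr1 had one each, at 634 and 500, below main ORFs at 896 and 800.

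In the list of JAK, STAT, IRF and SOCS genes the count was 5 of 25 (20.0%, 6.83 to 40.7%), and 4 of the 5 were SOCS genes, inhibitors of cytokine receptor signalling. Socs1 had 34 codons at 960 across a junction, which ended 1 base before a main ORF of 212 codons at 669, and 10 codons at 943 on the same stop. A listed ORF of 93 codons with the same end as this main ORF scored 896, and 74 codons within its span scored 957. The difference in Socs1 thus depends on the start taken as main. Socs2 had 31 codons at 743 above its main ORF of 198 codons (684), and 3 more at 577, 576 and 512. Shorter listed ORFs that ended at the same base as this main ORF scored 698 (196 codons) and 767 (159 codons). The latter was above the 31-codon ORF, and 113 codons over the main start of Socs2 scored 977. Socs4 had 3 between 542 and 710 (main ORF 969), all on 1 stop. Socs5 had 96 codons at 646. The kinase Jak2 had 45 codons at 628.

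Kinase, decay and survival lists held a few genes each. MAP kinase genes had 4 of 28 (14.3%, 4.03 to 32.7%), among them Mapk6, Map3k11 and Map3k3. Of PI3K and Akt pathway genes 3 of 19 did (15.8%), among them Pik3r1 (44 codons at 933) and Pik3cd (35 at 880), both below their main ORFs. NF-kB genes had 1 of 22 (4.55%), the deubiquitinase Cyld, with 35 codons at 947 that ended 14 bases before its main ORF (961). Genes of cytokine mRNA decay had 3 of 24, Rc3h1, Cnot6 (43 codons at 893) and Cnot7 (38 at 870), the last pair being subunits of the CCR4-NOT deadenylase. Cell death genes had 3 of 27, Cflar, Mcl1 and Xiap. Mcl1, an antiapoptotic BCL2 relative, had 79 codons at 909, 34 bases before a main ORF of 240 codons at 638, though other ORFs of this family scored up to 973. Of USP deubiquitinases 6 of 41 did (14.6%, 5.57 to 29.2%), led by Usp21 (34 codons at 953, main ORF 565), Usp53 (36 at 905) and Usp9x (37 at 867). Mitochondrial fusion and fission genes had 2 of 12, Mief1 and Mtfr1.

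Housekeeping and effector lists had few. None of 78 cytosolic ribosomal protein genes had a long upstream ORF (interval up to 4.62%), none of 47 proteasome genes (up to 7.55%), none of 30 cytokines and chemokines (up to 11.6%) and none of 27 interferon-induced effectors (up to 12.8%). Mitochondrial ribosomal proteins had 1 of 76, Mrpl30 (30 codons at 574), oxidative phosphorylation 1 of 57, Cox8a, translation initiation factors 1 of 37, Eif4g3 (31 at 598), and Rab GTPases 1 of 40, Rab29. Antigen presentation and maturation genes had 1 of 22, Nlrc5. Among larger families, solute carriers had 13 of 180 (7.22%, 3.90 to 12.0%), Zfp-named zinc finger genes 14 of 220 (6.36%, 3.52 to 10.4%) and TRIM and RNF ubiquitin ligases 3 of 89 (3.37%). The solute carriers were led by Slc45a4 (48 codons at 982, main ORF 872) and also held Slc7a11, the cystine transporter (35 codons at 823, main ORF 987). The interferon list was chosen by hand and does not hold Samd9l or Ifi213 (32 codons at 833), interferon-induced genes with a long upstream ORF. The intervals of the proteasome, cytokine and interferon lists reach past 4.55%, and that of the ribosomal proteins ends just above it.

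**Figure D5:**
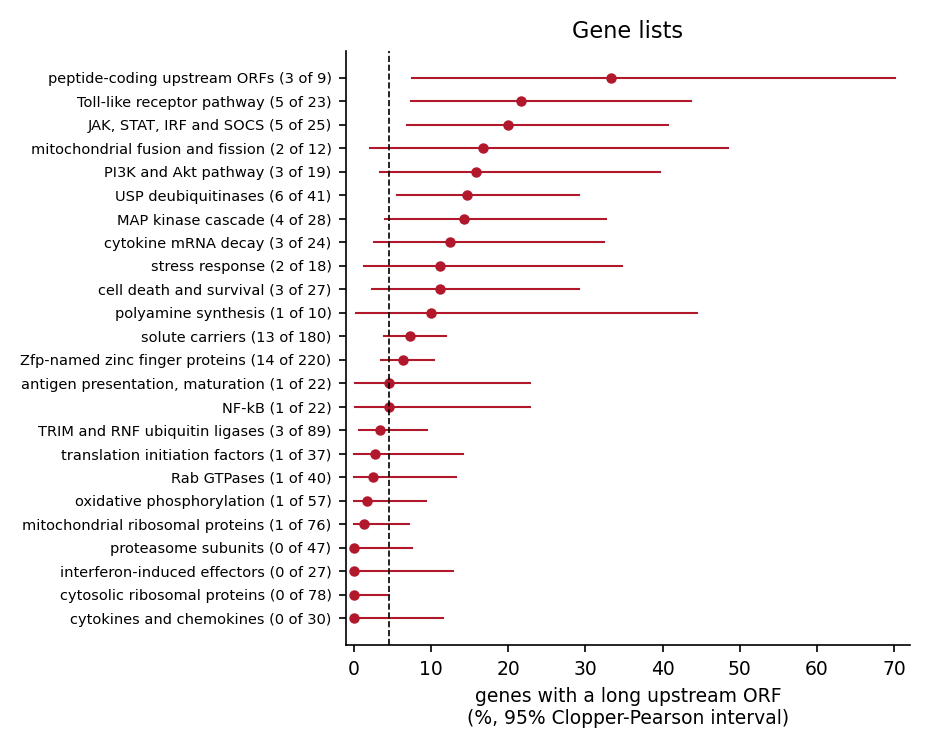
Share of genes with a listed ORF that carry a long upstream ORF (%, points with 95% Clopper-Pearson intervals) in 24 gene lists, with the share over all named genes (4.55%) as a dashed line. The Toll-like receptor and the JAK, STAT, IRF and SOCS lists stand at 21.7% and 20.0%, and 4 lists stand at 0.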

How the data were processed

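Ribosome footprints were sequenced from 37 libraries of mouse dendritic cells, per the labels' protocols. Bowtie2, TopHat and mm9 are named, with no version, in the submitters' processing notes. How ORFs were called and transcripts modelled is not given in the sources used here, and the authors deposited 1 list with the exon blocks, the coding span and a score per ORF. No deposited ORF scored under 500, so lower ones are not analysed here. An ORF can be listed only where its transcript was modelled, so the number of ORFs can move with expression and depth.

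Python 3.11.15, numpy 2.4.6 and scipy 1.17.1 were used here. For all 22367 ORFs, the codons in the name plus a stop codon matched the coding bases. Transcript positions were counted over the exon blocks in 1-based mm9 coordinates. Gene names came from RefSeq (GRCm38.p6), which gave no coordinates for the list; 186 families had no gene name. The class rule, distance, frame and junctions were tested on simulated data, 2500 ORFs in 500 families, and all came out right. No test between classes was made.

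The members and the 24 gene lists were chosen with earlier results of these data known. Named were the 10 highest scores (1 per family), the families with most members, up to 6 members of each list by score, the 5 shortest and 5 longest distances to the main start, up to 2 at each edge of the window, and a fixed set of genes (Mief1, Asnsd1, Mkks, Slc35a4, Cox8a, Ifrd1, Socs1, Tirap, Cflar, Atf4 and Ddit3). Selenoprotein genes, Syk, Clec5a, Esr1, Stk16, Taf9 and the genes whose start letters are shown were added after their values were seen. Values of some single genes are left out here. Alternatives were other ways to count ORFs, score filters, other choices of the main ORF, transcripts without the main start, a distance limit and other length windows.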

Additional observations from a re-analysis of the deposited data

How the results depend on the processing

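Of 98 recomputed values, 80 moved by less than their spread or, for counts, less than 1.5 times. Only ORFs at or above the median score of the list (847) left 146 long upstream ORFs in 138 families, with a median score of 927, 69.9% above their main ORF, 107.5 bases to the main start and 42.5% in frame. A score of 900 or more left 101 in 99 families, with a median score of 945, 79.2% above their main ORF, 105 bases to the main start, 202 bases from the transcript start, 42.6% with a junction and 45.5% in frame. Both filters raise the score by construction. With 1 ORF per family, the highest score, the median score was 760 and 34.3% scored above their main ORF. With the highest-scoring ORF as main ORF there were 416 long upstream ORFs in 341 families, against 614 in 481, a change under the limit of 1.5 times. Their median score was 673.5, and no long upstream ORF can then score above its main ORF. With 25 to 99 codons the median length was 38.0 codons. Leaving out selenoprotein genes, an alternative chosen after seeing the data, was among the 80. The share as long as the RefSeq protein of the gene was not run, since no protein table was used. No paired analysis was possible because the list has no sample columns, and the coverage tracks that the labels name were not used here. Without depth per library, a gene with no listed long upstream ORF may have one that was not detectable.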
